A study of Ogataea polymorpha NCYC 495 leu1.1 with 8 samples.

Results

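The 8 genes described here encode proteins that shape, multiply and divide peroxisomes in the methylotrophic yeast Hansenula polymorpha. They were chosen by their role and identifier out of 5999 genes on the microarray, with earlier results of these data known. They are PEX11 (Hp24g562), PEX25 (Hp16g88) and PEX11C (Hp5g555) of the Pex11 family, PEX32 (Hp27g236) and PEX24 (Hp47g626) of the Pex23 family, PEX3 (Hp47g896), and the fission genes DNM1 (Hp39g301) and MDV1 (Hp24g1082).

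Peroxisomes hold the oxidase that starts methanol metabolism, so cells that live on methanol need many large ones, whereas cells on glucose keep few and small ones. In yeast an existing peroxisome grows by importing proteins and membrane, is elongated by proteins such as Pex11p, and is then cut by the dynamin-related GTPase Dnm1p. Proteins of the Pex23 family reside in the endoplasmic reticulum, and in H. polymorpha several of them take part in contacts between this membrane and the peroxisome. Pex3p is the anchor in the peroxisomal membrane at which newly made membrane proteins are received.

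Cells of strain NCYC 495 leu1.1, a leucine auxotroph that both conditions share, were grown on glucose at 37 °C and sampled at an OD of 2.3. The same cultures were brought to an OD of 0.2 in fresh mineral medium with 0.5% methanol and sampled again after 2 hours. Both RNA samples of each of the 4 independent cultures were compared on 2 two-colour arrays with exchanged dyes, which makes 8 arrays on 1 slide. Carbon source, fresh medium and the lower cell density changed together, and their contributions cannot be told apart in this design. Equal amounts of RNA were labelled from both conditions, so that each value is relative to the rest of the RNA, and a change in every cell cannot be told apart from a larger change in a part of the cells.

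In a given channel, 90.6% to 98.3% of the spots of gene probes were well above background. The labels were checked with 4 genes of methanol metabolism (AOX, DHAS, CAT and FMD), whose log2 ratio of methanol over glucose lay between 1.86 and 8.05 in the single cultures. Culture 1 stood somewhat apart from the others, with a correlation across genes, which are not independent replicates, of 0.894 at the lowest against another culture and 0.978 at the highest between any pair of cultures. The 8 genes gave 128 spots over the arrays, all of them well above background in both dyes, with 0 marked as outliers and 0 saturated. Duplicate spots on the same array differed in their log2 ratio by 0.031 in the median and by 0.34 at most.

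After 2 hours on methanol 7 of the 8 genes had risen and PEX11C had fallen, each in all 4 cultures and each with an adjusted p below 0.05 (limma, Benjamini-Hochberg over 5999 genes). Without pairing the samples of a culture, the adjusted p of PEX11C, PEX3, DNM1 and MDV1 was 0.110, 0.194, 0.161 and 0.0705 (limma). The p-values of that unpaired fit followed the size of the change over the 8 genes, whatever their SD. They therefore do not show whether the result of a single gene rests on the pairing. The rises of PEX32, PEX11, PEX24 and PEX25 also exceeded 2-fold at a signal above the minimum, which counts as a call here, while PEX3, DNM1, MDV1 and PEX11C changed by less than 2-fold. Among all genes 19.1% were called up and 21.4% called down by the same criteria, and 36.2% were higher and 34.4% lower at any fold. A ratio above 0 in all 4 cultures was found for 41.3% of all genes and one below 0 for 39.1%. PEX11, PEX24 and PEX32 exceeded 2-fold in every single culture, as did 14.8% of all genes. In 4 of the 8 genes all methanol signals lay above all glucose signals, as in 20.0% of all genes. These signals include the differences in brightness between arrays. The median log2 ratio of the 8 genes was 0.94, beside 0.04 for all genes. Ordered by mean log2 ratio they were PEX32, PEX11, PEX24, PEX25, MDV1, DNM1, PEX3 and PEX11C.

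**Figure D1:**
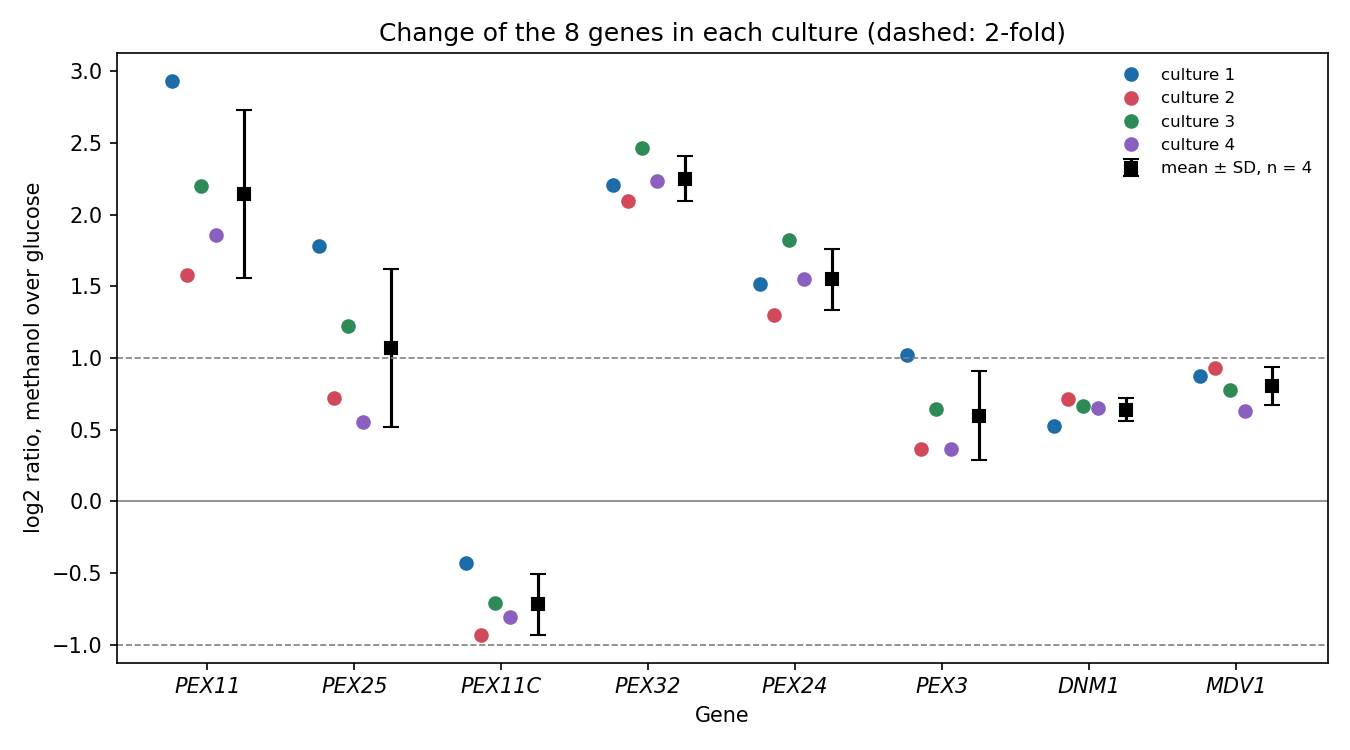
Log2 ratio of methanol over glucose signal (vertical axis) of the 8 genes in each of the 4 cultures (coloured points, mean of 2 dye-swapped arrays), with the mean and SD of the cultures (black squares and bars, n = 4). PEX11, PEX24 and PEX32 lie above the dashed 2-fold line in every culture, PEX25 lies on both sides of it, and PEX11C is the one gene below 0.

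PEX11 encodes the founding member of its family, an abundant peroxisomal membrane protein that remodels and elongates the membrane before fission. Its processed signal on glucose was 7204, 4907, 3202 and 5628 intensity units in cultures 1 to 4, and on methanol it was 55033, 14641, 14693 and 20372. Even the lowest methanol value lay well above the highest glucose value, and culture 1 on methanol stood far above the other 3. PEX11 rose 4.41-fold, with a 95% confidence interval of 2.99- to 6.52-fold, and its mean log2 ratio was 2.14 ± 0.59 (SD, n = 4, adjusted p = 3.08e-04, limma). The rise was uneven, with log2 ratios of 2.93, 1.58, 2.20 and 1.86 in cultures 1 to 4. As few as 11.9% of all genes had a larger SD between cultures, and without culture 1 the mean log2 ratio was 1.88.

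PEX25 encodes a second protein of the Pex11 family, which in H. polymorpha is needed when peroxisomes have to form anew in cells that lack them. Its signal on glucose was 312, 192, 162 and 275 units in cultures 1 to 4, and on methanol it was 1069, 317, 377 and 403 units. All methanol values lay above all glucose values, though culture 2 on methanol (317) barely exceeded culture 1 on glucose (312). Array brightness enters these signals. Over the median gene of the array and dye, the log2 level was -3.42 to -3.30 on glucose and -2.82 to -1.48 on methanol. The log2 ratio was 1.07 ± 0.55 (SD, n = 4, adjusted p = 0.00503, limma), a 2.10-fold rise with an interval of 1.45- to 3.04-fold. The ratio exceeded 2-fold in cultures 1 and 3 (1.78 and 1.22) and stayed under it in cultures 2 and 4 (0.72 and 0.55). PEX25 kept its direction but lost the 2-fold call without culture 1, where its log2 ratio was 0.83, and also after loess with (0.91) or without (0.96) normexp background correction, on the arrays with methanol in Cy5 (0.98) and by limma's treat against a 2-fold change.

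PEX11C, the third member of this family and the least understood one, went the other way. Its signal on glucose was 1489, 1157, 1151 and 1435 units in cultures 1 to 4 and declined on methanol to 1107, 607, 705 and 822 units. Every methanol value was below every glucose value, a separation that 21.8% of all genes showed in this direction. The log2 ratio was -0.72 ± 0.21 (SD, n = 4, adjusted p = 0.00191, limma), or 0.608-fold with an interval of 0.498- to 0.742-fold. This interval just includes a 2-fold decrease. The 4 cultures gave -0.43, -0.93, -0.71 and -0.80, with the smallest decrease in culture 1.

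Within the Pex11 family the 3 genes thus kept the same order in every culture, with PEX11 highest, PEX25 second and PEX11C lowest. The log2 ratio of PEX11 exceeded that of PEX25 by 1.07 ± 0.20 (SD, n = 4), with single cultures between 0.86 and 1.30. PEX11 exceeded PEX11C by 2.86 ± 0.37 and PEX25 exceeded PEX11C by 1.79 ± 0.37. Each of these differences had the same sign in 4 of 4 cultures, for which the exact two-sided sign-flip test gives p = 0.125, the smallest value that 4 cultures allow, and 0.188 after adjustment over the 6 pairs of genes compared. The difference between PEX11 and PEX25 varied less between cultures than the ratio of either gene.

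**Figure D2:**
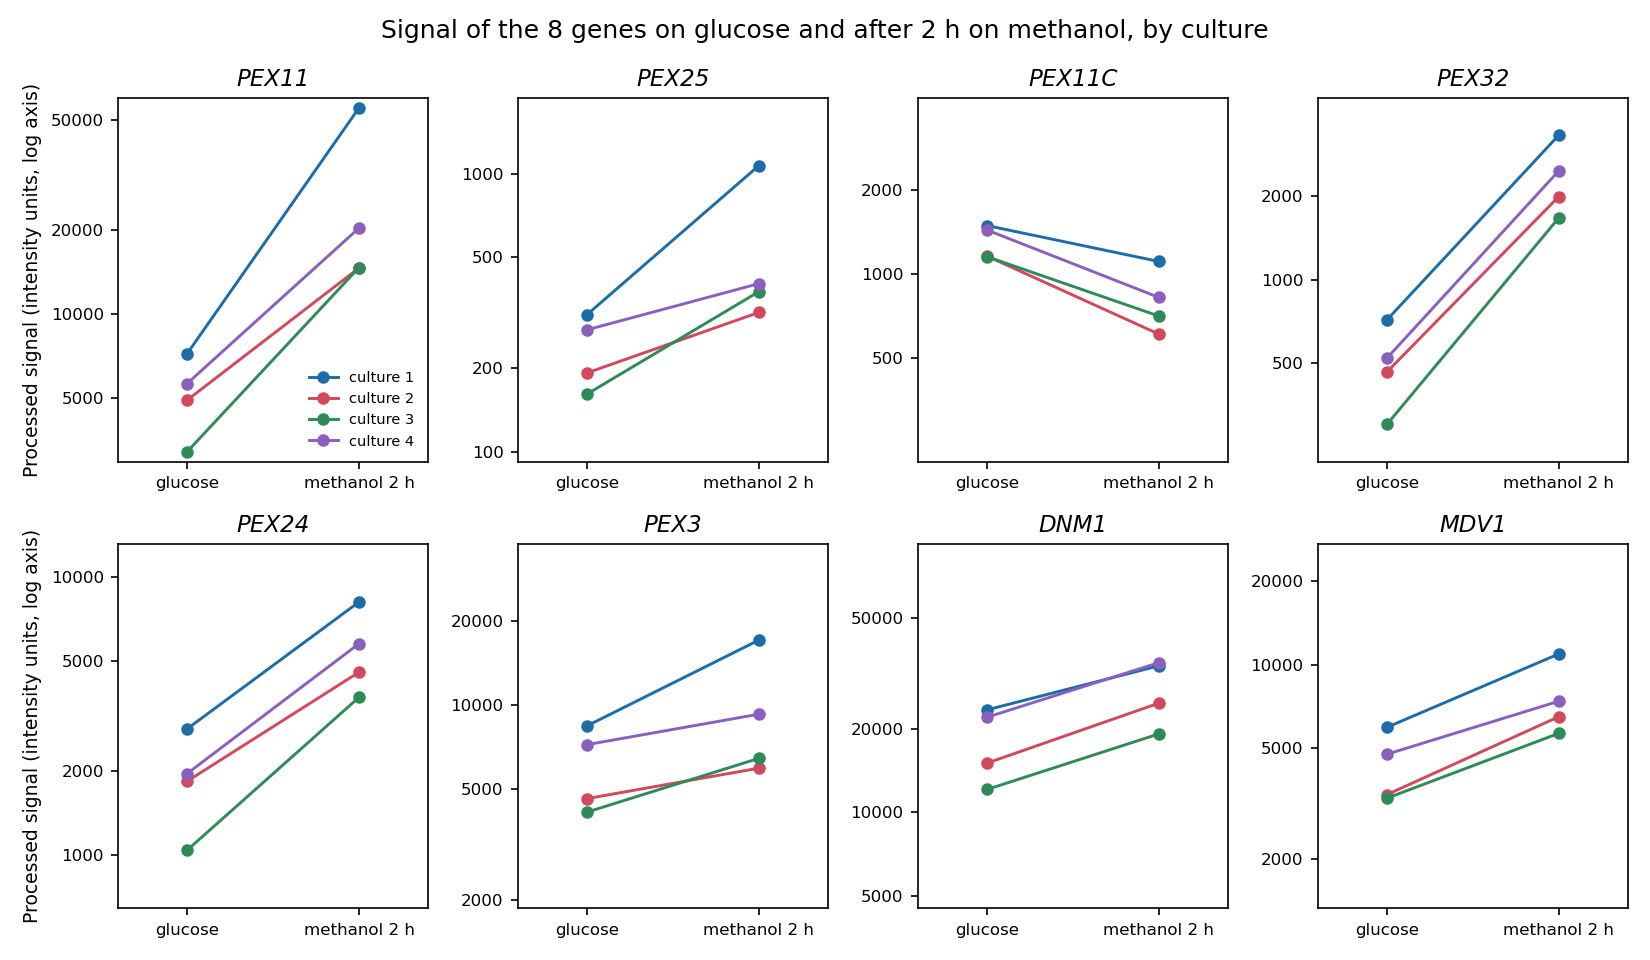
Processed signal (vertical log axis, intensity units, spanning the same fold range in each panel) of the 8 genes on glucose and after 2 h on methanol, with a line for each of the 4 cultures. The lines of PEX32 run nearly parallel, those of PEX11 and PEX25 are steepest in culture 1, and those of PEX11C slope down.

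PEX32 and PEX24 encode membrane proteins of the Pex23 family, which in yeasts influence the number and size of peroxisomes. PEX32 had the highest mean ratio of the 8 genes, and 6.53% of all genes rose further. Its signal on glucose was 717, 466, 302 and 522 units in cultures 1 to 4, and on methanol 3304, 1988, 1667 and 2459 units, with no overlap between the conditions. The log2 ratio was 2.25 ± 0.16 (SD, n = 4, adjusted p = 1.43e-05, limma), a 4.76-fold rise with an interval of 3.98- to 5.68-fold. In the single cultures it was 2.21, 2.09, 2.47 and 2.24, a range of 0.37, and 76.6% of all genes had a larger SD.

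The signal of PEX24 was 2842, 1843, 1042 and 1964 units on glucose in cultures 1 to 4, and 8123, 4544, 3691 and 5751 units on methanol. The conditions did not overlap for this gene either. Its log2 ratio was 1.55 ± 0.21 (SD, n = 4, adjusted p = 8.00e-05, limma), a 2.92-fold rise with an interval of 2.39- to 3.57-fold, and it was 1.51, 1.30, 1.82 and 1.55 in the cultures. Both genes responded most in culture 3 and least in culture 2.

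PEX32 exceeded PEX24 in each culture by a nearly constant amount, 0.70 ± 0.06 on the log2 scale (SD, n = 4, between 0.64 and 0.79), which is the smallest SD of the 6 differences compared (exact sign-flip p = 0.125, adjusted 0.188). The difference between PEX32 and PEX11, the genes with the highest mean ratios, was only 0.11 ± 0.57 and changed sign between cultures (exact sign-flip p = 0.75 before and after adjustment). PEX11 was ahead by 0.73 in culture 1 and PEX32 was ahead in the other 3 cultures, so that these neighbours in the order did not differ beyond their spread.

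The relatives of PEX32 and PEX24 did not show the same rise. Of the 5 Pex23 family genes on the array these were the 2 that rose. PEX23 (Hp39g248) had a log2 ratio of 0.20 ± 0.12 (adjusted p = 0.109, limma) and PEX29 (Hp29g7) one of -0.41 ± 0.55 (adjusted p = 0.135, limma), both without passing the test. PEX29 was positive in culture 1 (0.41) and negative in the others (-0.83 to -0.60). The PEX23-like gene (Hp25g249) fell slightly in all 4 cultures, and its mean log2 ratio was -0.26 ± 0.08 (adjusted p = 0.0437, limma).

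PEX3 encodes the membrane anchor that receives membrane proteins carried by Pex19p and is also known to take part in peroxisome inheritance in bakers' yeast. Its signal on glucose was 8426, 4616, 4128 and 7213 units in cultures 1 to 4, and on methanol 17130.3, 5937, 6441 and 9279 units. Signals rose within each culture but overlapped between conditions, since cultures 2 and 3 on methanol stayed below cultures 1 and 4 on glucose. This overlap is one of signals that include differences in array brightness. Over the median gene of the array and dye, the log2 level was 1.17 to 1.46 on glucose and 1.58 to 2.52 on methanol. The log2 ratio was 0.60 ± 0.31 (SD, n = 4, adjusted p = 0.00979, limma), a 1.51-fold rise whose interval of 1.19- to 1.93-fold ends below 2-fold. Culture 1 alone reached 2-fold (1.02), whereas the others gave 0.36, 0.64 and 0.36, and the mean without culture 1 was 0.46. For PEX19 (Hp9g314), the partner of PEX3, the log2 ratio was 0.17 ± 0.19 and did not pass the test (adjusted p = 0.203, limma).

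DNM1 and MDV1 encode components of the fission machinery, which peroxisomes share with mitochondria. FIS1, another gene of this machinery, could not be matched to a probe and was not analysed. Dnm1p assembles into rings that constrict the organelle, and Mdv1p is the adaptor that links it to the membrane. The signal of DNM1 on glucose was 23337, 15021, 12078 and 21953 units in cultures 1 to 4, and on methanol 33599, 24664, 19127 and 34479.6 units. These signals overlapped between conditions, although each culture rose, and they include differences in array brightness. Over the median gene of the array and dye, the log2 level of DNM1 was 2.83 to 2.93 on glucose. On methanol it was 3.49 to 3.64. Its log2 ratio was 0.64 ± 0.08 (SD, n = 4, adjusted p = 0.00115, limma), a 1.56-fold rise with an interval of 1.33- to 1.82-fold, which again ends below 2-fold. DNM1 was the most even of the 8 genes, with 0.53, 0.72, 0.66 and 0.65 in the cultures, and 95.3% of all genes had a larger SD.

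MDV1 gave 5956, 3413, 3313 and 4766 units on glucose in cultures 1 to 4 and 10926, 6501, 5665 and 7389 units on methanol. Culture 3 on methanol stayed below culture 1 on glucose, so that these signals overlapped as well. Taken over the median gene of the array and dye, the log2 level was 0.70 to 0.97 on glucose. The methanol levels taken in this way were 1.38 to 1.87. The log2 ratio was 0.80 ± 0.13 (SD, n = 4, adjusted p = 5.81e-04, limma), a 1.74-fold rise, and its interval of 1.47- to 2.07-fold includes a 2-fold change. The cultures gave 0.88, 0.93, 0.77 and 0.63. MDV1 was above DNM1 in 3 of 4 cultures, and the log2 ratio of DNM1 minus that of MDV1 was -0.16 ± 0.16 (exact sign-flip p = 0.25, adjusted 0.30), within the spread between cultures. DNM1 and MDV1 therefore rose by a small and even amount, at a log2 ratio below 1 in all 8 arrays for both genes.

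The 8 genes differed in how much the cultures varied and on which carbon source they did so. To compare cultures whose arrays differ in brightness, the level of a gene was taken relative to the median gene of the same array and dye. On glucose the 4 cultures lay close together for PEX25, with a range of 0.12 on the log2 scale, for PEX3 (0.28) and for PEX11 (0.34). On methanol the ranges of the same 3 genes were 1.33, 0.94 and 1.36, with culture 1 highest in each case. The uneven ratios of these genes thus lay mainly in their methanol levels.

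For PEX32 and PEX24 the ranges on methanol (0.35 and 0.42) were not larger than those on glucose (0.39 and 0.59). DNM1 varied least on both, by 0.09 on glucose and 0.15 on methanol, MDV1 varied by 0.27 and 0.49, and PEX11C by 0.49 and 0.56. The range was larger on methanol than on glucose for 6 of the 8 genes, and for 63.8% of all genes. That count is close to the background, whereas the sizes of the ranges set PEX11, PEX25 and PEX3 apart from the other 5 genes.

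**Figure D3:**
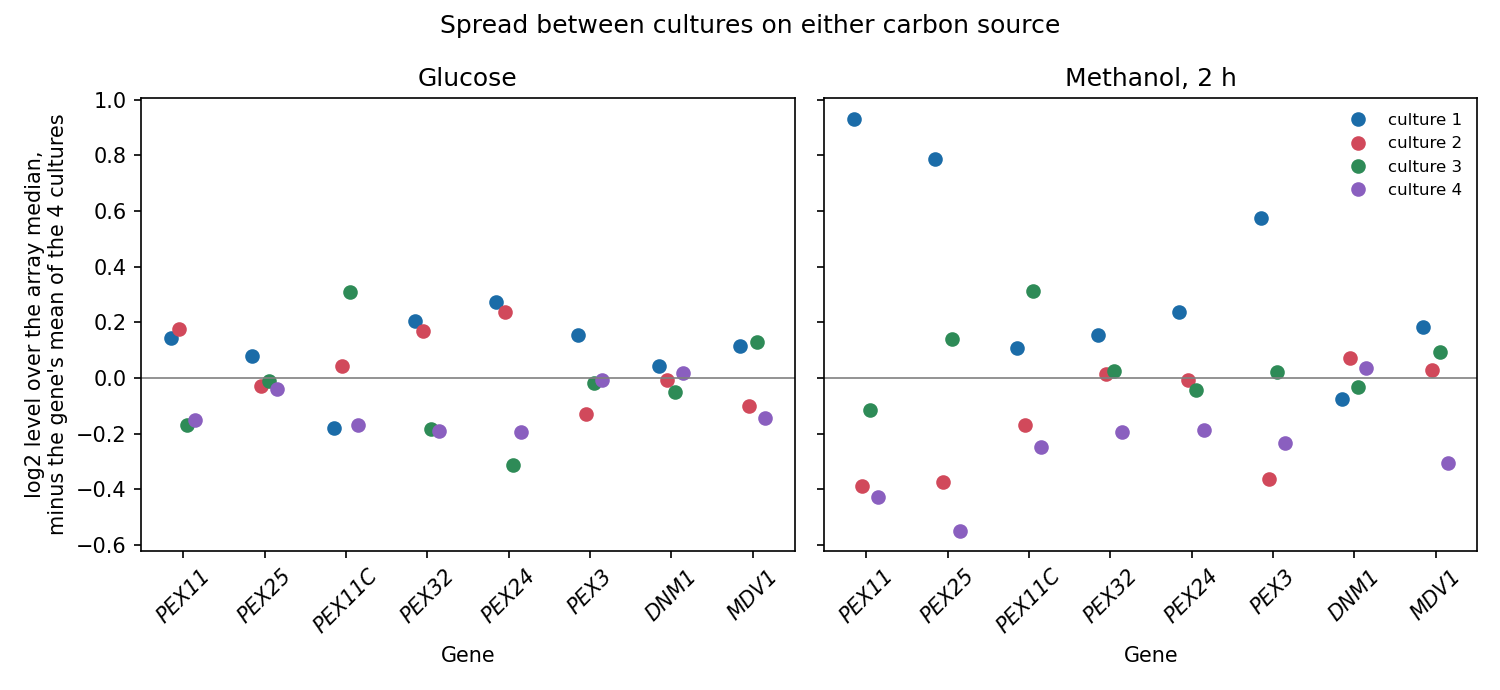
Level of each of the 8 genes in the 4 cultures on glucose (left) and methanol (right), as log2 signal over the median gene of the array (vertical axis), after subtraction of the mean of the 4 cultures. Culture 1 stands well above the others for PEX11, PEX25 and PEX3 on methanol (ranges of 1.36, 1.33 and 0.94), while the DNM1 points nearly coincide.

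The 2 arrays of culture 1, which hold the same RNA with exchanged dyes, both stood above the other 6 arrays for these 3 genes. Their log2 ratios were 2.73 and 3.13 for PEX11 against at most 2.24 elsewhere. For PEX25 they were 1.89 and 1.67 against at most 1.32, and for PEX3 1.00 and 1.05 against at most 0.72. In PEX11, PEX25, PEX3 and PEX11C the ratio was highest in culture 1 and second highest in culture 3, an order that 11.8% of all genes showed. Of the 4 methanol genes, the oxidase gene AOX (log2 ratios of 5.10, 1.86, 4.32 and 2.45 in cultures 1 to 4) and DHAS (5.32, 2.94, 4.10 and 3.26) had this order, whereas CAT and FMD, like PEX32, PEX24, DNM1 and MDV1, did not. This order was picked out after the values were seen and is a description, and whether the cultures had advanced to a different extent after 2 hours was not tested.

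Exchanging the dyes changed the ratios of the 8 genes little. The log2 ratio with methanol in Cy5 minus that with glucose in Cy5 lay between -0.18 for PEX25 and 0.14 for PEX11. It passed the test for PEX25 (-0.18 ± 0.08, adjusted p = 0.0251, limma) and PEX11C (-0.12 ± 0.04, adjusted p = 0.0440, limma), beside 21.1% of all genes that were lower and 15.2% that were higher with methanol in Cy5. The change of PEX25 was 2.23-fold on the arrays that carried glucose RNA in Cy5 and 1.97-fold on the swapped ones, on different sides of the 2-fold limit. For PEX32 both orientations gave about the same change, 4.77-fold and 4.75-fold.

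The 19 other PEX genes of H. polymorpha, most of which act in the import of matrix proteins and the recycling of import receptors, had a median log2 ratio of 0.72. Of these, 8 were called up and 0 down, beside 19.1% and 21.4% of all genes. At any fold 13 were higher, 1 (the PEX23-like gene) was lower and 5 did not pass the test (limma, adjusted over all genes). Among all genes 36.2% were higher and 34.4% lower at any fold. No change of the p-value method could alter the count called down among the 19 genes. The lowest mean log2 ratio among them, -0.41, was short of a 2-fold decrease. Their log2 ratios ran from -0.41 for PEX29 to 1.84 ± 0.13 for PEX26 (Hp15g17), which encodes the membrane anchor of the receptor recycling complex. PEX32 and PEX11 had higher mean ratios than each of the 19, and PEX11C a lower one than each of them. These ranks of PEX11 and PEX11C did not hold in every culture. PEX11 was above PEX26 in cultures 1 and 3 but slightly below it in cultures 2 (1.58 against 1.65) and 4 (1.86 against 1.89). PEX29 was below PEX11C in culture 4 alone (-0.83 against -0.80).

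The genes of 4 peroxisomal membrane proteins outside the PEX genes rose in the same period. They were chosen with earlier results of these data known and do not stand for such proteins in general. Both sub-units of the ABC transporter that brings activated fatty acids into the organelle, Hp8g534 and Hp33g390, had log2 ratios of 2.89 ± 0.65 and 2.65 ± 0.31 (adjusted p = 1.33e-04 and 2.48e-05, limma). The adenine nucleotide transporter Hp44g158, which supplies ATP, rose by 1.48 ± 0.65 on the log2 scale (adjusted p = 0.00229, limma). Hp47g786, whose closest match is a human peroxisomal membrane protein of the PMP24 type, rose by 2.25 ± 0.69 (adjusted p = 4.54e-04, limma). All 4 were called up, beside 19.1% of all genes, and each was higher in 4 of 4 cultures, beside 41.3% of all genes. The ratio of 3 of them was highest in culture 1, with Hp33g390 slightly higher in culture 3 (2.93 against 2.91).

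**Figure D4:**
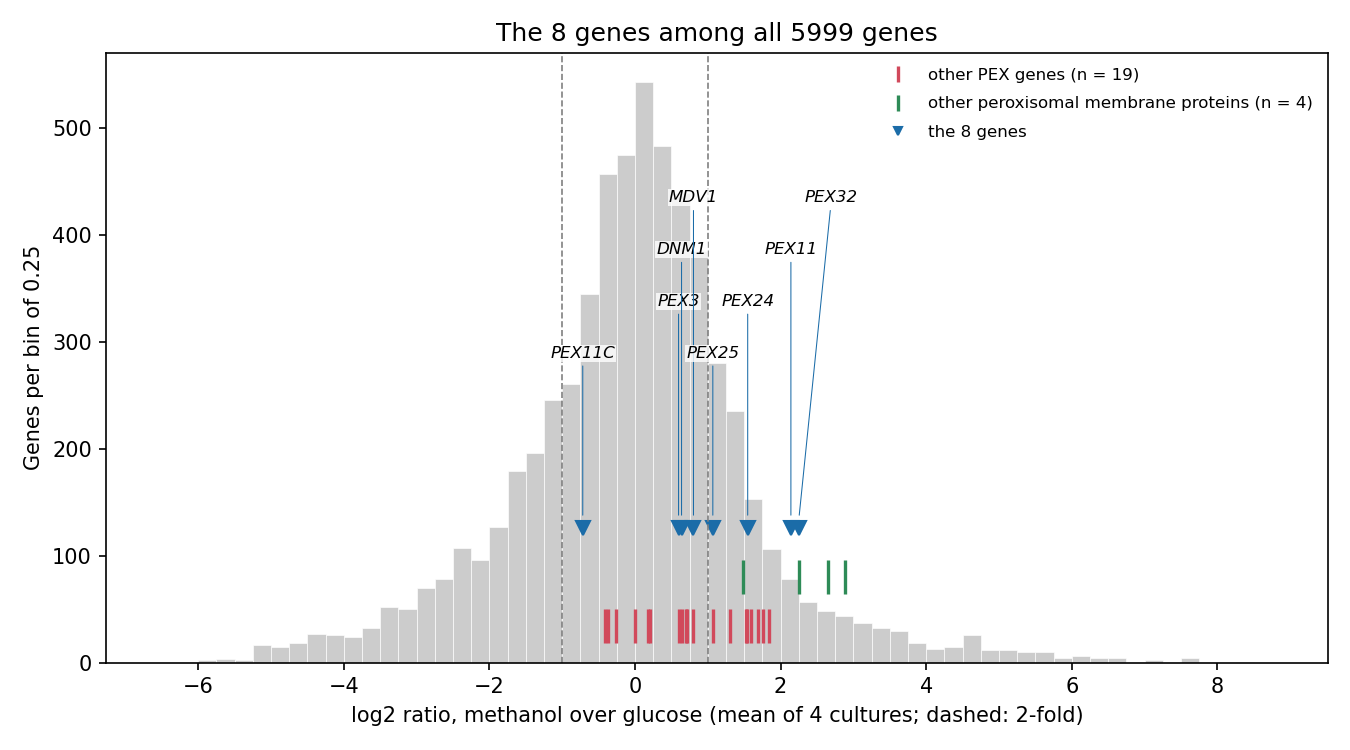
Number of genes per bin of log2 ratio (grey bars, all 5999 genes, mean of 4 cultures), with the 8 genes (blue triangles), the 19 other PEX genes (red marks) and the 4 other peroxisomal membrane proteins (green marks); dashed lines mark 2-fold changes, and the height of the marks carries no value. Of the 8 genes, 4 lie to the right of the upper 2-fold line and PEX11C is the one on the negative side.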

How the data were processed

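The authors deposited Agilent Feature Extraction output (version 9.5) for each of the 8 arrays, which holds for every spot and each dye a processed intensity (spatially detrended and LOWESS-normalized between dyes, with no local background subtracted). A second deposited table gives log10 ratios, whose values stand 5 positions from their identifiers. After this shift they equalled the Feature Extraction ratios with a largest difference of 0, and the table served as an alternative.

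Log2 ratios of methanol over glucose signal were averaged over 2 spots and then over the 2 dye-swapped arrays of a culture (n = 4 cultures). Outlier spots were left out and saturated spots kept. Each gene was tested against no change in limma 3.58.1 (R 4.3.3), with Benjamini-Hochberg adjustment over 5999 genes. Calls required a mean log2 signal (A-value) of at least 6, an adjusted p below 0.05, and a change of more than 2-fold either way (under 0.5 for decreases), the fold and signal limits being those of the study's methods. All 8 genes passed the signal limit. The dye effect was fitted in the same way, and differences between genes were tested by exact sign-flip over cultures. The fit was tested on simulated data.

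Both samples of an array come from 1 culture, so that the ratio is the pair. Across genes, the departures of both samples of a culture from their condition means correlated with r between 0.247 and 0.453, which sharing an array can also produce. The members, gene lists and tests were chosen with earlier results of these data known. The named genes are the 8 members, their family relatives and partner, 4 other peroxisomal membrane proteins, the highest and lowest other PEX gene, 4 methanol genes and, for each member, the 2 genes with the most similar ratios. Some genes of these lists are counted but not reported singly. Signal over background stands in for depth, and the number of arrays limits precision. No genome was used, and no coordinates or sequences are given. The alternatives are given with their effects in the closing section. Figures were made with matplotlib 3.10.9.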

Additional observations from a re-analysis of the deposited data

How the results depend on the processing

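In the 23 alternatives, each of the 8 genes kept the direction of its log2 ratio, and 3 or 4 were called up and 0 down. Several alternatives changed only the test, the p-value or the signal filter and left the mean log2 ratio as it was. The direction could not change in those. PEX11, PEX24 and PEX32 were called in all of them. PEX25 was not called after normexp and loess (0.91), after loess on mean signals (0.96), with methanol in Cy5 only (0.98), by limma's treat against a 2-fold change (1.07) or without culture 1 (0.83). PEX11C ranged from -0.81 to -0.62 and was never called. The other PEX genes called up numbered 6 to 9. Leaving out each culture in turn gave 3 to 4 of the 8 genes and 7 to 8 of the other PEX genes, with 0 called down. Without the replicate block, that is without the pairing of both samples of a culture, 4 were called up and 0 down, and 8 and 0 of the other PEX genes, but the smaller changes of PEX11C, PEX3, DNM1 and MDV1 no longer passed an adjusted p of 0.05 (0.0705 to 0.194, limma). The difference of PEX32 minus PEX11 ranged from -0.027 without culture 2, where it changed sign, to 0.39 without culture 1. The dye differences of PEX32 and MDV1 turned positive after normexp and loess (0.086 and 0.049) and after loess on mean signals (0.087 and 0.051). Under both, those of PEX11, PEX3 and DNM1 passed the test (0.14 to 0.21) and that of PEX11C did not. That of PEX25 missed it after normexp and loess (-0.10, adjusted p = 0.0795, limma). Over all genes, treat called 760 up and 910 down instead of 1145 and 1283. The causes were not tested.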

Other observations

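The genes most like each of the 8 were sought by the root mean square difference of the log2 ratios over the 4 cultures, among genes with an A-value of at least 6. This likeness uses 4 values per gene and says nothing of shared function. Such counts depend on how many genes changed by a like amount as well as on how evenly they did so. Within 0.25 of PEX11 lay 7 genes, and the nearest were Hp24g1362a and Hp9g391, at differences of 0.19 and 0.20. The membrane protein gene Hp47g786 had a similar uneven rise, with log2 ratios of 3.17, 1.81, 2.40 and 1.64 in cultures 1 to 4. PEX25 had 31 genes within this limit, among them its second nearest, Hp46g94 (FGH, S-formylglutathione hydrolase of the formaldehyde oxidation route), at 0.15 with log2 ratios of 1.70, 0.77, 1.04 and 0.77 in cultures 1 to 4. Its nearest gene was Hp25g142 at 0.14.

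PEX32 had 43 genes within the limit, and the nearest was Hp24g757 at 0.10, whose closest match is the trehalose-cleaving enzyme alpha,alpha-trehalase of bakers' yeast. The second was Hp5g3 at 0.13. For PEX24 there were 137 genes, with Hp32g440 and Hp51r5173 nearest at 0.06 each. PEX11C had 138, with Hp39g621 and Hp39g421 nearest at 0.09 and 0.10. The even and small rise of the fission genes was common, with 397 genes near DNM1 and 322 near MDV1. The nearest to DNM1 were Hp47g812 and Hp44g366 at 0.05 each, the latter matching a subunit of the yeast proteasome, and the nearest to MDV1 were Hp24g1238 and Hp46g91 at 0.07 each. PEX3 had 197 genes within the limit, and the nearest were Hp33g316 (PEX6, an ATPase of receptor recycling) at 0.023 and Hp19g298 at 0.037.

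The 4 cultures were also searched for single values far from the others by Dixon's test, in the ratios and levels of the 8 genes and in the 6 differences, 30 sets in all. None of them (0 of 30) exceeded the critical value of 0.829, including the high culture 1 values of PEX11, PEX25 and PEX3. The methanol level of PEX11 came to 0.771. With 4 values the test detects only extreme departures, so this result does not show that culture 1 was like the others.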
